A study of Mus musculus with 5 samples.

Results

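DNA replication genes were examined in hematopoietic stem cells (HSCs) from which the RNA-binding protein SYNCRIP had been deleted. The set held 44 genes chosen by name for a part in loading, starting or running the replication fork or in supplying its deoxynucleotides, out of 24046 genes in the expression table. All 44 were found and all 44 passed the filter on low values. Bone marrow of Syncrip flox/flox mice was transplanted into CD45.1 congenic recipients, and the recipients received polyinosinic:polycytidylic acid (pIpC), which induces the interferon-driven Mx1 Cre. Donor CD45.2+ Lin- Sca1+ cKit+ CD150+ CD48- cells were sorted at 9 weeks after transplant and 3 weeks after pIpC, and their RNA was sequenced in bulk. The WT group was Syncrip flox/flox, Mx1 Cre- with 3 libraries (WT 1, WT 2, WT 3), and the KO group was Syncrip flox/flox, Mx1 Cre+ with 2 libraries (KO 2, KO 3). Both groups carried the floxed alleles, had gone through the transplant and had received pIpC. Mx1 Cre is active in all interferon-responsive cells, so deletion was not limited to HSCs. The ages of the mice, and whether each library was a separate animal, are not in the labels, so p-values measure only the spread between these libraries.

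Before S phase, the origin recognition complex marks replication origins, and Cdc6 and Cdt1 load the ring-shaped MCM2-7 helicase onto them. Kinases, Cdc45 and the GINS complex then turn the loaded ring into an active helicase, polymerase alpha with primase lays down primers, and polymerases delta and epsilon extend them while held by the PCNA clamp. Most HSCs in adult marrow rest outside the cell cycle, and many replication genes are transcribed under the E2F factors when a cell enters it.

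Promoter letters known for E2F binding were common in the set. RefSeq (GRCm38.p6) gave a window of 250 bases before to 50 bases after a start for 36 of the 44 genes, and none for Gmnn, Mcm4, Gins1, Gins2, Gins4, Prim2, Pole and Rfc2. The E2F letters searched were TTTCCCGC, TTTCGCGC, TTTGCCGC and TTTGGCGC on both strands, and 2 such words can overlap when they lie on opposite strands. They stood in a window of 15 of the 36 genes (41.7%), against 455 of 10115 tested genes with a window (4.50%) and 704 of all 27025 genes with a window (2.605%). CCAAT, searched on both strands, stood in 23 of the 36 (63.9%) and in 41.1% of all genes with a window. The stretches upstream of Mcm6 and Mcm5 are shown because they hold the overlapping form. The Mcm6 stretch lies at chr1:128359720-128359840 on the minus strand and the Mcm5 stretch at chr8:75109331-75109392 on the plus strand, both outside annotated exons, and capitals mark the E2F letters.
Mcm6: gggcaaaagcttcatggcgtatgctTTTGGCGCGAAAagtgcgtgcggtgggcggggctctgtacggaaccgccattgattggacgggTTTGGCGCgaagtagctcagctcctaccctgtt
Mcm5: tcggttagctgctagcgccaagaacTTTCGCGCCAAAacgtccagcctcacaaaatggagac

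Sites of 4 further genes are shown because their genes lay at opposite ends of the KO comparison, Orc3 and Pola1 on the lower side and Cdt1 and Pold1 on the higher side. They lie at chr4:34614968-34614991 (Orc3, minus strand), chrX:93632278-93632301 (Pola1, minus strand), chr8:122568039-122568062 (Cdt1, plus strand) and chr7:44548766-44548784 (Pold1, minus strand). Capitals again mark the E2F letters.
Orc3: tgcctcccTTTCCCGCacgccccg
Pola1: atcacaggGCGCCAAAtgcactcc
Cdt1: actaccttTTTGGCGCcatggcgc
Pold1: atcttgtgGCGGGAAAagc
The same kind of letters thus stood near starts of genes that were higher and of genes that were lower in the KO libraries. Of the genes with a window, the letters were found in 2 of 5 whose KO values all lay above WT, 3 of 10 whose KO values all lay below WT, and 10 of 21 whose groups overlapped. A match describes the letters only and is not a site shown to be bound.

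The targeted gene was checked first. The normalized read count of Syncrip was 1944, 1440 and 1794 in WT 1, WT 2 and WT 3, and 294 and 343 in KO 2 and KO 3. The groups did not overlap, and the log2 fold change (KO minus WT, on log2(value + 1)) was -2.43 ± 0.22 (SE), adjusted p = 0.0352 by limma. The count covers the whole gene and not only the floxed exons. Syncrip was the single gene of 13661 tested that passed limma at an adjusted p under 0.05. It missed the threshold with no filter (-2.43, adjusted p = 0.0503), with no mean-variance trend (-2.43, 0.0968), without any one WT library (-2.55 to -2.34, 0.164 to 0.210) and after correction for transcript GC content and length (-1.47, 0.146). Libraries held 12539599 to 22779536 assigned reads, and KO 2 and KO 3 were the least deeply sequenced. The genes that define the sort gate were all detected, none at 0, but Cd48 and the myeloid granule gene Mpo (175652 to 343980) were present although the gate excludes CD48+ and lineage-marked cells. Cd48 was 601 to 768 in WT and lower in both KO libraries, at 459 and 191 (log2 fold change -1.20), as was Ptprc, which encodes CD45 (-1.42). The summed neutrophil and myeloid list took 4.59% to 5.33% of reads in WT, 4.19% in KO 2 and 2.07% in KO 3. An erythroid list took 0.355% to 0.450% in WT, 0.333% in KO 2 and 0.229% in KO 3. Its 10 genes did not move together, and Car1 and Car2 held most of the sum. Without overlap, 3 were lower (23.2% of all genes were) and 2, Klf1 and Epor, were higher (23.9% were). In KO 2, 5 of the 10 had their highest value. A sum over primitive HSC genes was 4108 to 8380 in WT, 5619 in KO 2 and 11844 in KO 3, with 7 of its 8 genes highest in KO 3. All 10 genes of an adipocyte list were highest in KO 2, where they took 0.155% of reads against 0.00115% to 0.00391% in the other libraries. The part of these differences in the results that follow was not tested. In bulk RNA, fewer cycling cells and less RNA per cell cannot be told apart.

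Across the 44 genes more values lay below WT than above it, with genes on both sides. The median log2 fold change was -0.33, against 0.02 over all genes tested, with 13 genes above 0 and 31 below. No gene passed limma at an adjusted p under 0.05, where 0.00732% of all genes did, and the lowest adjusted p was 0.0815, for Pold2. Before adjustment, 16 of the 44 had a p under 0.05, 4 higher and 12 lower in KO, where 27.8% of all genes did. No gene passed edgeR's quasi-likelihood test, where 0.0146% of all genes did. DESeq2 called 8 genes at an adjusted p under 0.05. Of these, Cdt1, Pold1 and Pold2 were higher, where 9.45% of all genes with an adjusted p were called in that direction. The other 5, Orc2, Orc3, Orc4, Pola1 and Rfc1, were lower, where 9.53% were.

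Both KO values lay above all WT values for 7 genes (15.9%, against 23.9% of all genes) and below all WT values for 13 genes (29.5%, against 23.2%). The 7 were Pold2, Pold1, Cdt1, Gins2, Mcm2, Rfc2 and Pola2. The 13 were Orc4, Orc5, Orc3, Pola1, Orc2, Rrm2, Prim1, Rrm1, Rfc1, Prim2, Pole, Mcm4 and Mcm6. The remaining 24 overlapped. Without KO 2 the lower count became 28, where 38.3% of all genes were lower. Without WT 2 it became 21, where 28.8% were, and without KO 3 the higher count became 13, where 32.8% of all genes were higher.

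**Figure D1:**
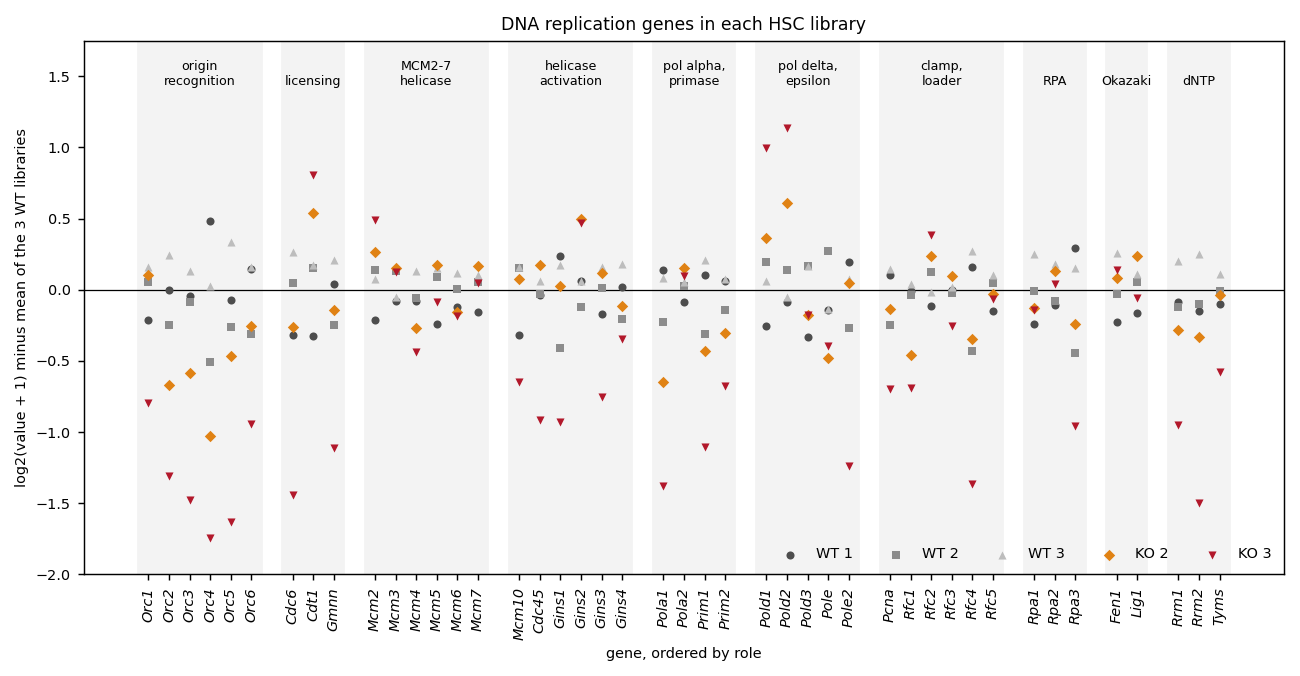
Each point is 1 library's log2(value + 1) of 1 gene minus the mean of the 3 WT libraries, with genes on the horizontal axis grouped by role and markers for WT 1, WT 2, WT 3, KO 2 and KO 3. KO 3 lies below KO 2 for 37 of the 44 genes. Orc4 lies lowest in both KO libraries, and Cdt1, Pold1 and Pold2 lie highest in KO 3.

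The 2 KO libraries differed from each other. The median of the 44 genes relative to the WT mean was -0.08 in KO 2 and -0.61 in KO 3, while single WT libraries lay at -0.13, -0.04 and 0.21 relative to the other WT libraries. KO 3 was farther from WT than KO 2 for 36 genes (81.8%, against 72.5% of all genes) and below KO 2 for 37 genes (84.1%, against 50.2%). In KO 2, 13 genes (29.5%) were below the lowest WT value, against 30.9% of all genes, and 13 (29.5%) above the highest, against 32.8%, so both shares were near the background. In KO 3, 28 genes (63.6%) were below, against 38.3% of all genes, and 7 (15.9%) above, against 40%. Without KO 2, limma called 17 of the 44 genes, 2 higher (9.9% of all genes were called higher) and 15 lower (12.2%), with the lone KO 3 assumed to vary like the WT libraries. Without KO 3 the median log2 fold change of the 44 genes was -0.076, against 0.014 over all genes tested. The share of all reads taken by the 44 genes was 0.939% to 1.05% in WT, 0.991% in KO 2 and 0.887% in KO 3.

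Origin recognition genes had the lowest median log2 fold change of the 10 roles, -1.01. After the correction for GC content and length the median was -0.43, and that of the licensing genes was lower, at -0.55. All 6 were below 0, and 4 (66.7%, against 23.2% of all genes) lay below WT without overlap. Orc4 (chr2:48902824-48950277), an ATPase-family subunit of the complex, was counted at 1078, 542 and 788 in WT and 377 and 229 in KO, and so every KO value was under the lowest WT value. Its log2 fold change was -1.39 ± 0.35 (SE), or -0.38 after that correction, with an adjusted p of 0.0818 by limma and 0.00488 by DESeq2. Orc5, another ATPase-family subunit, read 1194, 1051 and 1584 in WT against 912 and 405 in KO, with a log2 fold change of -1.05 ± 0.35 (-0.51 after the correction). Orc3, a core subunit that contacts Orc2, read 2249, 2183 and 2542 in WT against 1545 and 831 in KO, and was the most abundant of the 6 by read count. Its log2 fold change of -1.03 ± 0.26 (-0.48 after the correction) missed the limma threshold (adjusted p = 0.0820) and passed that of DESeq2 (adjusted p = 0.0122). Orc2 read 1596, 1341 and 1893 against 1003 and 644, a log2 fold change of -0.99 ± 0.25 (-0.55 after the correction). In these 4 genes both KO libraries were low and KO 3 was the lower of the 2. Orc1, the subunit whose level changes through the cell cycle, overlapped, with 571 to 738 in WT, 710 in KO 2 and 380 in KO 3, and Orc6 overlapped as well at 1173 to 1629 in WT, 1220 in KO 2 and 756 in KO 3.

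The licensing genes lay on both sides of WT. Cdt1 (chr8:122568015-122573554), which brings the MCM2-7 ring to the origin, read 2659, 3695 and 3747 in WT and 4843 and 5815 in KO, with both KO values above WT. Its log2 fold change was 0.67 ± 0.21, with an adjusted p of 0.0994 by limma and 0.0294 by DESeq2. Gmnn encodes geminin, the inhibitor of Cdt1, and read 1706 to 2341 in WT, 1839 in KO 2 and 939 in KO 3. Cdc6, the loader ATPase, read 2584 to 3867 in WT, 2688 in KO 2 and 1185 in KO 3, a log2 fold change of -0.85 ± 0.33. For both Gmnn and Cdc6 the KO 2 value fell inside the WT range and KO 3 lay beneath it. The ratio of Cdt1 to Gmnn reads was 1.28, 2.17 and 1.60 in WT, 2.63 in KO 2 and 6.20 in KO 3. This ratio was chosen after the values were seen and has no test. It is not corrected for GC content, and the corrected log2 fold changes were 0.04 for Cdt1 and -0.55 for Gmnn.

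The MCM2-7 helicase subunits had a median log2 fold change of 0.07, and 1 was higher (16.7%, against 23.9% of all genes) and 2 were lower (33.3%, against 23.2%) without overlap, counts near the background. Mcm2 (chr6:88883474-88898780) read 10528, 13397 and 12824 in WT and 14672 and 17092 in KO, with a log2 fold change of 0.38 ± 0.18. Mcm4 read 6981, 7076 and 8084 in WT and 6121 and 5431 in KO (-0.35 ± 0.17). Mcm6 read 15714, 17175 and 18622 in WT and 15348 and 15043 in KO (-0.17 ± 0.17), which put both KO values just under the lowest WT value. After the correction for GC content and length, the log2 fold changes of Mcm2 and Mcm4 were -0.019 and 0.0015. Mcm3 read 9645, 11163 and 9874 in WT and 11349 and 11119.9 in KO. Mcm5 read 10788, 13579.8 and 14206 in WT and 14386 and 12004 in KO. Mcm7 read 10255, 11919 and 12286 in WT and 12863 and 11846 in KO. These 3 overlapped between groups, and the limma adjusted p of the 6 subunits ran from 0.206 to 0.902. The direction of Mcm5 and Mcm7 turned under quantile normalization, and the direction of all 6 turned after correction for transcript length and GC content.

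Levels of different genes were compared per kb of the longest coding transcript, which need not be the form expressed. On this scale Rrm2 was the highest of the 44 in WT at 5650 normalized reads per kb. It was followed by Mcm6 at 3943, Mcm7 at 3878, Mcm5 at 3803, Mcm2 at 3634 and Mcm3 at 3374. The order of Mcm6 and Mcm7, of Mcm7 and Mcm5, and of Mcm2 and Mcm3 changed from one WT library to another, so these neighbours did not differ beyond their spread. Mcm5 lay above Mcm2 in all 3, but in WT 2 only by 4016.5 against 3974. Mcm4 was lower, at 2056, and was the lowest of the 6 subunits in all 5 libraries. The highest subunit exceeded Mcm4 by 1.86, 2.04 and 1.90-fold in WT, 2.55-fold in KO 2 and 3.35-fold in KO 3. These levels are not corrected for GC content. The corrected log2 fold changes were -0.019 for Mcm2 and 0.0015 for Mcm4, and the part of GC content in the wider gap was not tested. In both KO libraries that highest subunit was Mcm2 (in KO 2 by a narrow margin, 4352 against 4343 for Mcm7), and it ranked first among all 44 genes in KO 3 while Rrm2 ranked 10. Orc4, at 197 normalized reads per kb in WT, and Orc1, at 221, had the lowest WT means of the set. The order of Orc4 against Orc1, Gins2, Gins3 and Pole changed between WT libraries, and so did that of Orc1 against Pole. Orc1 lay below Gins2 and Gins3 in all 3, but in WT 2 only by 227.5 against 228.5 for Gins2.

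**Figure D2:**
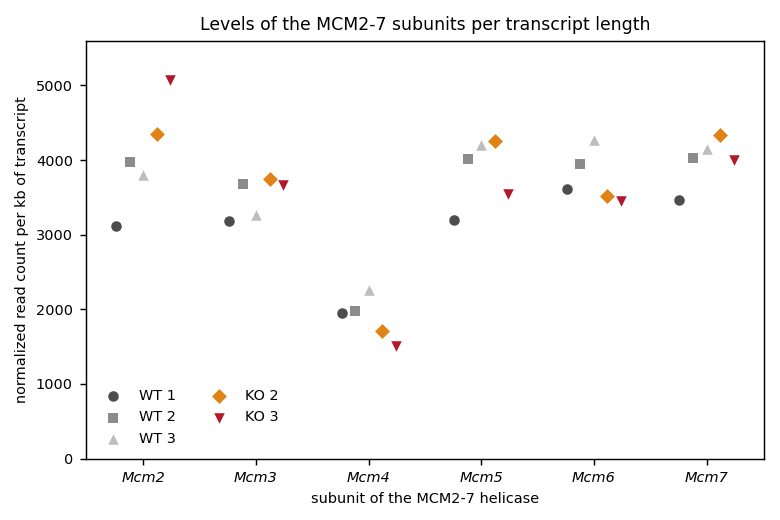
Normalized read count per kb of transcript (vertical axis, from 0) of the 6 MCM2-7 subunits in each of the 5 libraries, 1 point per library. Mcm4 lies lowest in every library, and Mcm2 is the highest subunit in KO 2 (4352) and KO 3 (5070). Levels are not corrected for GC content, and the corrected log2 fold changes of Mcm2 and Mcm4 are -0.019 and 0.0015.

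Helicase activation genes had a median log2 fold change of -0.30, or -0.17 after the correction for GC content and length, and 5 of 6 overlapped between groups. Gins2, a subunit of the GINS complex, was the exception, with 1011, 891 and 1013 in WT against 1370.2 and 1346 in KO, a log2 fold change of 0.48 ± 0.19 (adjusted p = 0.142 by limma), or 0.24 after the correction for GC content and length. The other GINS subunits did not share this direction, with log2 fold changes of -0.45 (Gins1), -0.32 (Gins3) and -0.23 (Gins4). After the correction these were -0.16, -0.13 and -0.24. Mcm10, which helps start the helicase, read 1702, 2360 and 2371 in WT, 2236 in KO 2 and 1352 in KO 3. Cdc45, the helicase cofactor, read 2049 to 2196 in WT, 2375 in KO 2 and 1115 in KO 3. Mcm10, Cdc45, Gins1 and Gins3 thus had a low value in KO 3 alone, and their log2 differences from WT in KO 2 were 0.08, 0.18, 0.03 and 0.12.

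Polymerase alpha and primase, the primer-making complex, showed no overlap between groups for any of its 4 genes, 3 of them lower (75%, against 23.2% of all genes) and 1 higher (25%, against 23.9%). The median log2 fold change was -0.63, or -0.29 after the correction for GC content and length. Pola1 (chrX:93304767-93632155), its catalytic subunit, read 2238, 1737 and 2155 in WT and 1298 and 779 in KO. The log2 fold change was -1.01 ± 0.25, or -0.37 after the correction, with an adjusted p of 0.0818 by limma and 0.00851 by DESeq2. The primase subunits Prim1 and Prim2 were also below WT in both KO libraries, by -0.77 ± 0.26 and -0.49 ± 0.20 on the log2 scale, or -0.30 and -0.29 after the correction. Pola2, the accessory subunit, lay on the other side, with 2983, 3230.3 and 3293 in WT against 3516 and 3379 in KO (0.12 ± 0.16), and turned to -0.21 after the correction.

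Pold2 and Pold1, of polymerase delta, had the highest log2 fold changes of the 44, while the median of the 5 polymerase delta and epsilon genes was -0.18. After the correction for GC content and length Pold2 was at 0.26, Pold1 turned to -0.11, and Rfc2 was highest of the 44 at 0.27. Pold2 (chr11:5872180-5878292), an accessory subunit of polymerase delta, read 2612, 3056 and 2674 in WT and 4232 and 6104 in KO, so that both KO values exceeded every WT value. Its log2 fold change was 0.87 ± 0.20, with an adjusted p of 0.0815 by limma and 0.00275 by DESeq2. Pold1, the catalytic subunit, read 5482, 7468 and 6822 in WT and 8419.9 and 13064 in KO (0.68 ± 0.23, adjusted p = 0.115 by limma and 0.0362 by DESeq2). Pold3, a further subunit of the same enzyme, overlapped, with 2044 to 2881 in WT against 2274 and 2269 in KO. Pole, the catalytic subunit of polymerase epsilon, lay below WT at 1376 and 1461 against 1742 to 2319 (-0.44 ± 0.20), and Pole2 overlapped. The ratio of Pold1 to Pole reads was 3.15, 3.22 and 3.90 in WT, 6.12 in KO 2 and 8.94 in KO 3, again a pair chosen after the values were seen and not corrected for GC content. The corrected log2 fold changes of the pair were -0.11 and -0.49.

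Among the clamp and its loader, Pcna, the sliding clamp, read 4023, 3152 and 4151 in WT and 3418 and 2307 in KO, an overlap with a log2 fold change of -0.42 ± 0.22, or -0.02 after the correction for GC content and length. Rfc1, the large subunit of the clamp loader, read 2614, 2565 and 2701 in WT and 1907 and 1627 in KO. Its log2 fold change was -0.58 ± 0.17, or -0.31 after the correction, with an adjusted p of 0.0941 by limma and 0.0187 by DESeq2. Rfc2, a small subunit of the same loader, lay on the opposite side, with 5116, 6034 and 5467 in WT and 6507 and 7211 in KO (0.31 ± 0.17, and 0.27 after the correction). Rfc3, Rfc4 and Rfc5 overlapped, and Rfc4 had the lowest log2 fold change of the 3 at -0.86 ± 0.33, or -0.32 after the correction. The median of the 6 clamp and loader genes was -0.25, and 0.0010 after the correction.

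The genes of the single-strand binding complex RPA and of Okazaki fragment maturation all overlapped with WT. Rpa1, the large RPA subunit, read 4360, 5114 and 6137 in WT and 4724 and 4664 in KO (-0.13 ± 0.19), while Rpa3, the small subunit, had the lowest log2 fold change of the complex at -0.60 ± 0.31 and turned to 0.19 after the correction for GC content and length. Fen1, the flap endonuclease, read 5883, 6750 and 8262 in WT and 7299 and 7584 in KO (0.11 ± 0.19), and Lig1, the ligase that joins the fragments, had a log2 fold change of 0.09 ± 0.18, and after the correction they turned to -0.15 and -0.16. The 95% intervals of Fen1 and Lig1 ran from -0.32 to 0.54 and from -0.32 to 0.50, which leave room for a change in either direction. Of the 3 deoxynucleotide genes, none passed limma, edgeR or DESeq2, and their median log2 fold change was -0.61, or -0.18 after the correction for GC content and length. Rrm2 (chr12:24708241-24714146), the S phase subunit of ribonucleotide reductase, read 11074, 11459 and 14642 in WT and 9747 and 4348 in KO (-0.92 ± 0.32, adjusted p = 0.117 by limma, and -0.59 after the correction). Rrm1, its partner subunit, read 11364, 11102 and 13907 in WT and 9936 and 6243 in KO (-0.61 ± 0.23, and -0.18 after the correction). Both KO libraries lay below WT for each, KO 3 by the wider margin, while Tyms, thymidylate synthase, overlapped.

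The order of the 44 fold changes followed the base composition of the transcripts. Pearson's r between the GC content of each gene's longest coding transcript and its log2 fold change was 0.90 over the 44 genes (Spearman's rho 0.87), 0.83 for KO 2 alone and 0.88 for KO 3 alone. It was 0.82 over 101 other genes (of the pathway, cell cycle regulation and proliferation) and 0.55 over the 13520 tested genes with a known transcript. These are correlations across genes of the same 5 libraries, which share the WT mean and are not independent points. The 22 genes of lowest GC content (36.8% to 48.4%) had a median log2 fold change of -0.60, with none above 0, 12 lower without overlap (23.2% of all genes were) and 0 higher. The 22 of highest GC content (48.55% to 60.7%) had a median of 0.09, with 13 above 0, 7 higher without overlap (23.9% of all genes were) and 1 lower. All 7 genes with both KO values above WT were thus in the GC-rich 22. WT libraries varied along the same axis. Among the 44 genes, r between GC content and the difference from the other WT libraries was -0.63 for WT 1, 0.73 for WT 2 and -0.28 for WT 3.

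**Figure D3:**
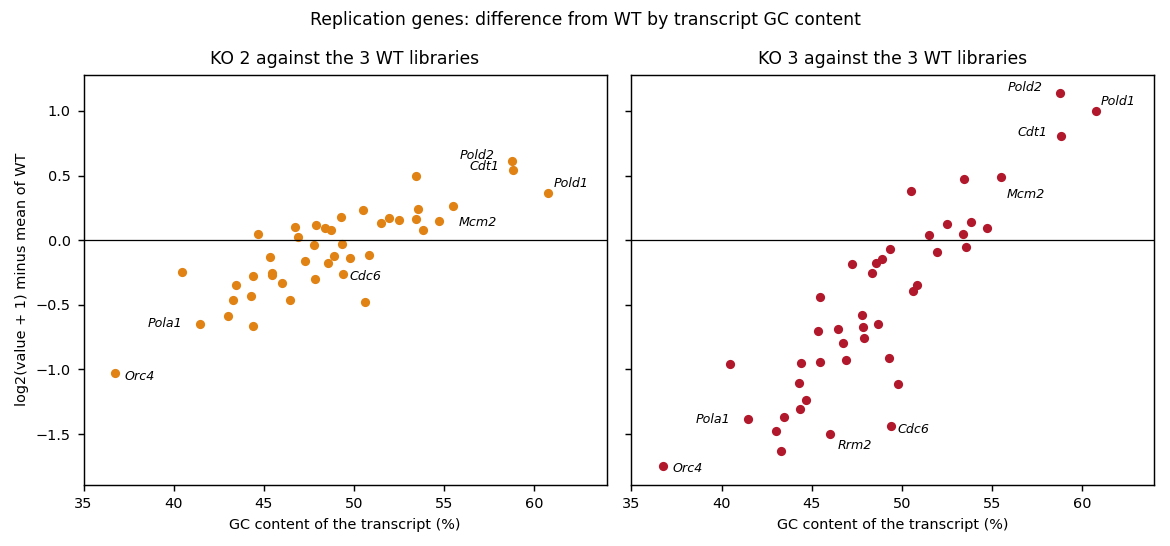
GC content of each gene's transcript in percent (horizontal axis) against log2(value + 1) in KO 2 (left) or KO 3 (right) minus the mean of the 3 WT libraries, 1 point for each of the 44 genes. Points climb from Orc4 at 36.8% GC to Pold1 at 60.7% in both libraries, with r of 0.83 and 0.88.

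After each library was corrected for linear trends on GC content and transcript length, 36 of the 44 fold changes were nearer to 0 and 8 were farther from it, among them Pole (-0.44 to -0.49) and Pola2 (0.12 to -0.21). The median over the 44 genes became -0.15, with 10 genes above 0 and 34 below. Both KO values lay above WT for 3 genes, where 16% of all genes did, and below WT for 11 genes, where 18.2% did. No gene passed limma (lowest adjusted p 0.235). Origin recognition genes all remained below 0, with a median of -0.43, and Orc4 moved from -1.39 to -0.38. Cdc6 and Gmnn moved little, to -0.80 and -0.55, whereas Pold1 moved from 0.68 to -0.11 and Cdt1 from 0.67 to 0.04. The correction would also remove any KO difference that follows GC content or length, and it moved the targeted gene Syncrip from -2.43 to -1.47. The part of base composition in the KO differences was not tested.

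**Figure D4:**
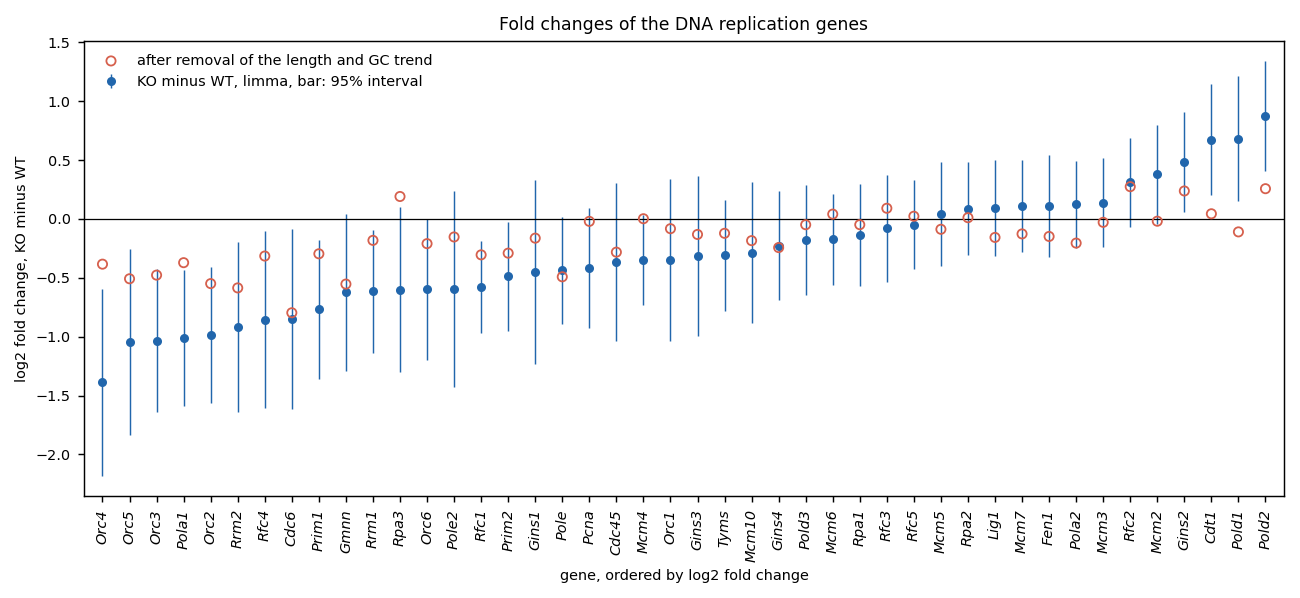
Log2 fold change (KO minus WT) of the 44 genes ordered from lowest to highest, with filled points and bars for the limma estimate and its 95% interval and open circles for the value after the length and GC trend was removed. Orc4 moves from -1.39 to -0.38 and Pold1 from 0.68 to -0.11.

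Other genes of the replication pathway, cell cycle regulators and proliferation markers also lay on both sides of WT. Of 101 such genes in 6 lists, with Top2a in 2 of the lists and counted once here, none passed limma, and 42 (41.6%, against 27.8% of all genes) had an unadjusted p under 0.05, 8 higher and 34 lower. DESeq2 called 5 higher (4.95%, against 9.45%) and 22 lower (21.8%, against 9.53%). By list the lower calls were 6 fork and initiation, 2 nucleotide supply and 0 chromatin assembly genes. A further 4 were E2F and RB family, 5 S phase kinase and checkpoint and 6 proliferation genes, with Top2a in 2 lists. Both KO values lay above WT for 22 (21.8%), near the 23.9% of all genes, and below WT for 38 (37.6%, against 23.2%). The median log2 fold change was -0.20, and -0.14 after the correction for GC content and length. Each list is described by its lowest and highest gene. Among 29 fork and initiation genes, 10 were lower (34.5%, against 23.2% of all genes) and 6 higher (20.7%, against 23.9%) without overlap. They ran from Pclaf (listed as 2810417H13Rik), a PCNA partner, at -1.44 ± 0.37 to Rnaseh2c, a subunit of ribonuclease H2, at 0.80 ± 0.18, or -0.72 and 0.25 after that correction. Of the 20 nucleotide supply genes, 8 were lower (40%, against 23.2% of all genes) and 8 higher (40%, against 23.9%) without overlap. They ran from Rrm2b, the p53-induced reductase subunit, at -1.07 ± 0.41 to Nme2, a nucleoside diphosphate kinase, at 0.77 ± 0.22, or -0.27 and 0.36 after the correction. The 9 chromatin assembly genes ran from Hat1, a histone acetyltransferase, at -0.997 ± 0.38 to Uhrf1, the hemimethylated DNA reader, at 0.23 ± 0.18, and 6 of them overlapped. After the correction Hat1 was at -0.53 and Uhrf1 turned to -0.030.

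Cell cycle regulators included the lowest fold change of the 101 genes. The 18 E2F and RB family genes ran from Rb1, the retinoblastoma protein, to Lin37, with 6 lower (33.3%, against 23.2% of all genes) and 3 higher (16.7%, against 23.9%) without overlap. Rb1 read 1491, 1375 and 1934 in WT and 881 and 333 in KO, a log2 fold change of -1.55 ± 0.38, or -0.88 after the correction for GC content and length. Ccne2, cyclin E2, had the lowest fold change of the 14 S phase kinase and checkpoint genes. It read 1310.4, 854 and 1481 in WT and 450.2 and 204 in KO, a log2 fold change of -1.96 ± 0.37, or -0.91 after the correction. Wee1, an inhibitory kinase, was highest in that list at 0.59 ± 0.25, or 0.62 after it. The 12 proliferation markers had the lowest median of the 6 lists, -0.85, with -0.40 in KO 2 and -1.19 in KO 3, and the list's median was -0.44 after the correction. Of these, 7 were lower (58.3%, against 23.2% of all genes) and 1 was higher (8.33%, against 23.9%) without overlap, from Bub1, a mitotic checkpoint kinase, at -1.34 ± 0.24 to Plk1, the polo-like kinase, at 0.29 ± 0.21. After the correction Bub1 was at -0.66 and Plk1 turned to -0.13. Proliferation markers and origin recognition genes were thus both low in KO 3, where the MCM2-7 genes had a median of -0.02.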

How the data were processed

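Bulk RNA from sorted HSCs was made into SMART-Seq v4 libraries. The labels name STAR, featureCounts, DESeq2 and mm10, without versions. The deposited table held a normalized signal per gene, which the authors made from read counts divided by a size factor for each library. A second deposited table holds the authors' own fold changes and p-values and was not used. Whole reads could be recovered for 100% of the values (tolerance 0.01), giving 12539599 to 22779536 reads per library. The planned limma test on log2(value + 1) was kept, on the 13661 genes with at least 10 in at least 2 libraries, with a mean-variance trend and Benjamini-Hochberg adjustment over all of them (limma 3.58.1, R 4.3.3). edgeR 4.0.16 and DESeq2 1.42.0 were run on the recovered reads. Scripts were tested on simulated data. Transcript length and GC content came from the longest coding GENCODE transcript of GRCm38 with the gene's symbol, known for 13520 tested genes, and promoter windows from RefSeq. Gene coordinates are those of GRCm38.

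All 44 genes are described by role. Values in every library are given for the 6 lowest and 6 highest fold changes, the most abundant gene of each role, the MCM2-7 subunits, Pcna and any gene called by one of the 3 tools, and each other list is given by its lowest and highest gene. Members and lists were chosen with earlier results of these data known. Replicate numbers 2 and 3 occur in both groups, but deviations from the group means did not go together (r = -0.06 and -0.18), so the numbers were not taken as pairs. No batch is named in the labels.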

Additional observations from a re-analysis of the deposited data

How the results depend on the processing

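Alternatives were a pseudocount of 10, no filter, TMM scaling, quantile normalization, no mean-variance trend, edgeR, DESeq2, a replicate block, leaving out each library, and removal of the length and GC trend. The count of replication genes past the threshold was 0 except with DESeq2 (8) and without KO 2 (0 to 17 when each library was left out), and that of the other pathway genes was 0 except with DESeq2 (27) and 0 to 40 when each library was left out. With the replicate block 0 replication genes were called, the median was -0.38 and no call changed. The median was -0.61 to -0.076 when each library was left out and -0.15 with the trend removed. The higher count without overlap was 7 to 13 and the lower count 13 to 28 with a library left out, and the higher count was 3 with the trend removed. Such counts could not be given for edgeR, DESeq2, the replicate block or the fit without a trend. Quantile normalization turned Mcm5 (-0.052) and Mcm7 (-0.025), and the replicate block turned Mcm5 (-0.080) and Fen1 (-0.0052). Removal of the trend turned Mcm2 (-0.019), Mcm3 (-0.029), Mcm4 (0.0015), Mcm5 (-0.088), Mcm6 (0.041), Mcm7 (-0.13), Pola2 (-0.21), Pold1 (-0.11), Rfc3 (0.091), Rfc5 (0.023), Rpa3 (0.19), Fen1 (-0.15), Lig1 (-0.16), Uhrf1 (-0.030) and Plk1 (-0.13). With single libraries left out, the direction turned for Orc1 (-0.80 to 0.10), Mcm5 (-0.089 to 0.17), Mcm10 (-0.65 to 0.077), Cdc45 (-0.91 to 0.18), Gins1 (-0.93 to 0.028), Gins3 (-0.76 to 0.12), Pole2 (-1.24 to 0.049), Rfc3 (-0.26 to 0.094), Rfc5 (-0.12 to 0.0020), Fen1 (-0.0052 to 0.24) and Lig1 (-0.055 to 0.24). The causes were not tested. The KO group of 2 libraries, the shallower ones, limits the precision of every fold change.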
